A study of Mus musculus with 6 samples.

Results

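The suppressors of cytokine signalling (SOCS) are a family of 8 genes, Cish and Socs1 to Socs7, whose transcripts were followed here in mouse spleen B cells with and without cross-linking of the antigen receptor. The members were found by gene symbol in the platform annotation of the array, and all 8 of 8 had a probe, out of 19057 genes with a probe of a single symbol. They were covered by 15 probes, and each gene was read from the probe that was brightest on average (mean log2 intensity over the 6 arrays). Cish, Socs1 and Socs3 had 1 probe each. All 8 passed the filter on dim probes, which kept a probe if 3 or more of the 6 arrays read it above their median. Socs7 passed mainly through the anti-IgM group, where it was above the median on 3 arrays against 1 untreated array, so the filter itself favoured a rise in it.

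The B cells were purified from spleens of C57BL/6 mice aged 8 weeks. The untreated group and the anti-IgM group held 3 samples each. Anti-IgM stands for goat F(ab')2 fragments against mouse IgM, applied for 3 h at 2.5 µg/ml. They cross-link antigen receptors on B cells. Stimulation with IL-4 (interleukin 4, 5 ng/ml) and CD40L (the CD40 ligand, 200 ng/ml) is described as well, without naming the samples that received it. Effects of these agents and of anti-IgM therefore cannot be told apart here. The comparison asks which SOCS transcripts differed after antigen receptor cross-linking. All 7 B cell markers examined passed the filter on dim probes, but 6 of them fell with anti-IgM and 0 rose, and their summed intensity was 68184 to 71297 without and 23700 to 27628 with it. The part of this shift in the results below was not tested. Every sample had its own Illumina bead array, and whether replicates were separate mice or cultures is not stated in the labels.

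SOCS proteins are made after cytokine signals and damp them. Cytokine receptors activate Janus kinases (JAKs), these phosphorylate STAT transcription factors, and STATs switch on SOCS genes, which closes a feedback loop. Each SOCS protein has an SH2 domain that binds phosphotyrosine and a SOCS box that recruits elongins B and C and a cullin to form a ubiquitin ligase. In lymphocytes the family is best known for limiting signals of IL-2, IL-4, IL-6, interferons and related cytokines. STATs bind the sequence TTCNNNGAA, which is its own reverse complement.

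This motif was searched in RefSeq promoter windows (GRCm38.p6), 300 bases long, of which 250 lie before the annotated start. Windows were available for 4 of the 8 genes, Cish, Socs1, Socs3 and Socs4. Cish held 2 matches and Socs3 held 1, and these letters were not in the windows of Socs1 and Socs4. Of all 32851 windows 8.30% held the motif and 0.457% held 2 or more matches. The windows with a match are shown up to 30 bases after the start, with the matches in capitals, because they belong to the member that rose most and the member that fell most. Cish lies on the plus strand at chr9:107296409-107296688 and Socs3 on the minus strand at chr11:117969337-117969616.
Cish: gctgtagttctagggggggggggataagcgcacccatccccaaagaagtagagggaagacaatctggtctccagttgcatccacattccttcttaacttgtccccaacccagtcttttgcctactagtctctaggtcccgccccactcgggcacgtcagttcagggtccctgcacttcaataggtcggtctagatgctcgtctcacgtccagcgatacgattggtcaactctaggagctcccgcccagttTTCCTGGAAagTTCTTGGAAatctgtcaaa
Socs3: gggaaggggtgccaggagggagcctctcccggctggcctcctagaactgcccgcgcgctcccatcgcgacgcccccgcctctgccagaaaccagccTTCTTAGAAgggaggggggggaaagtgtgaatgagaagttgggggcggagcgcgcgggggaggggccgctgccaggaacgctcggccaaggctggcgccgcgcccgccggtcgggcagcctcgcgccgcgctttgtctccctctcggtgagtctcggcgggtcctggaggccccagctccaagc
In Cish the matches TTCCTGGAA and TTCTTGGAA begin at the first and the 12th base after the start. In Socs3 the match TTCTTAGAA begins 154 bases before it. A match describes the letters of the window and is no measurement of STAT binding.

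The arrays numbered 1 differed from the other arrays of their group. Over 23505 probes tested, the deviations of the 2 replicate 1 arrays from their group means correlated at 0.60. Large differences were rarer. Replicate 1 lay above the mean of the others by over 1 on the log2 scale in both groups in 14 genes (0.118%), and below it in 46 (0.388%). Xist, the transcript of the silenced X chromosome of female cells, read 52.6 on both replicate 1 arrays and from 791 to 2031 on the remaining 4. The Y-linked gene Eif2s3y read 1043 and 517 in untreated and anti-IgM replicate 1 and from 48.6 to 56.4 elsewhere, and Kdm5d, also Y-linked, read 200.0 and 127 against 54.6 to 65.0. The labels do not give the sex of the mice, and the difference in these sex-linked transcripts cannot be told apart from other differences of replicate 1. Over all probes tested, arrays of the same group had a Pearson's r of 0.981 to 0.992 and arrays of different groups one of 0.898 to 0.912, so the replicate 1 arrays still resembled their own group more than the other. For Cish and the STAT gene Stat5a, both high in replicate 1, results are given with and without it.

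Transcripts of 4 members rose with anti-IgM, Cish, Socs4, Socs6 and Socs7, and those of 2 fell, Socs3 and Socs5. Socs1 and Socs2 did not pass the test (adjusted p under 0.05 in limma, adjusted over all 11855 genes tested). Over all genes 47.1% were called, 23.2% higher and 23.9% lower. Groups without overlap were found in 5 of 8 members, 3 higher and 2 lower, against 54.8% of all genes, 27.8% higher and 26.9% lower. The median log2 change of the members was 0.30, beside 0.02 for all genes. Changes are given on the log2 scale as anti-IgM minus untreated, ± the SE of the limma fit, over 3 arrays a group. Intensities are the authors' normalized values on a linear scale. A probe's brightness also depends on its own sequence, so intensities of different genes are not set against each other.

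**Figure D1:**
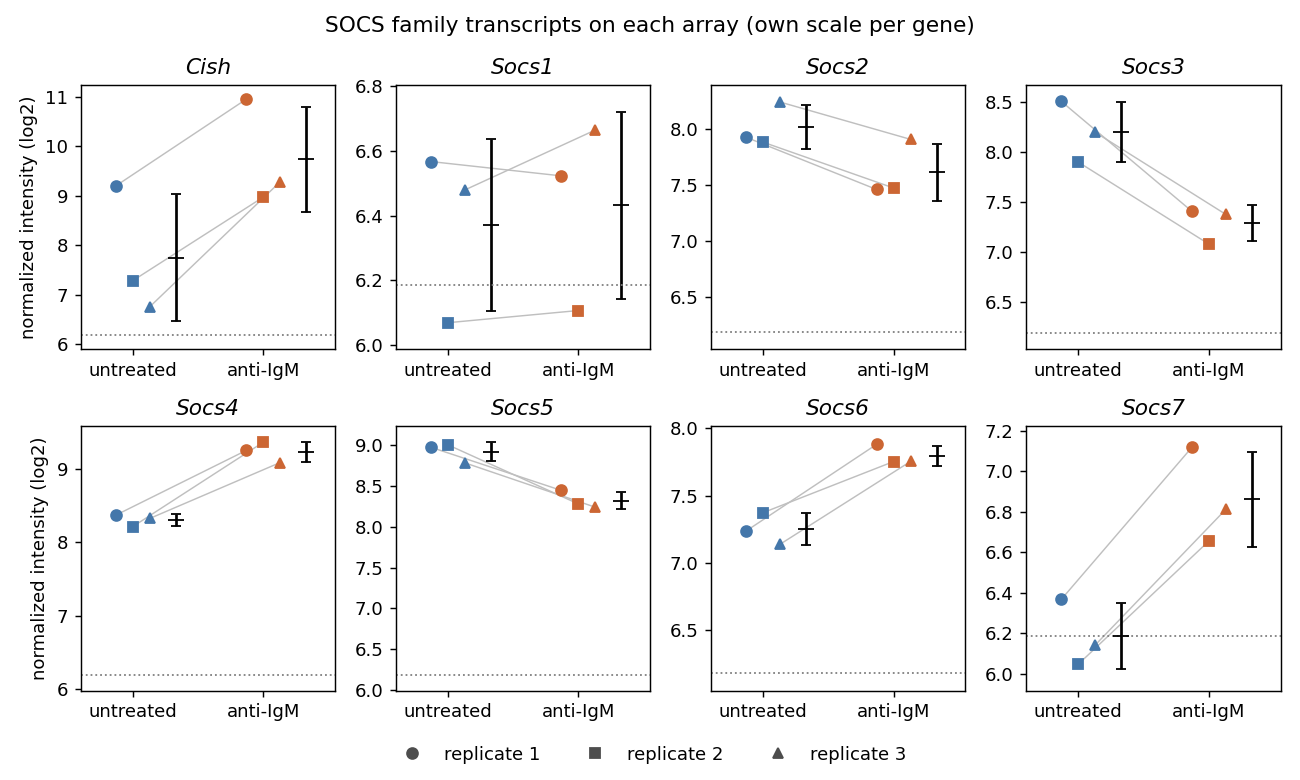
Normalized log2 intensity of each SOCS family transcript on the 3 untreated (blue) and 3 anti-IgM (orange) arrays, with the replicate number as symbol, lines joining equal numbers, bars for the mean ± SD (n = 3) and a dotted line at the array median. Each panel has its own scale. Cish is highest in replicate 1 of each group, and Socs3, Socs4, Socs5, Socs6 and Socs7 show groups without overlap.

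Cish, which encodes CIS, binds receptor tails that STAT5 would otherwise use and is a known STAT5 target. Its intensity was 588, 156 and 108 in untreated replicates 1, 2 and 3, and 1981, 503 and 623 in anti-IgM replicates 1, 2 and 3. Replicate 1 was the highest array of each group, and the groups overlapped because untreated replicate 1 read above anti-IgM replicate 2. The change was 3.97-fold (1.99 ± 0.62; adjusted p = 0.021, limma), the largest rise in the family. Within the numbered pairs it was 1.75, 1.69 and 2.53, so Cish was higher with anti-IgM in 3 of 3 pairs. The labels state no pairing, and equal numbers were paired here by correlations of these same arrays. With the replicate number as a block the same change had a smaller error (1.99 ± 0.14; adjusted p = 3.02e-11, limma). Without replicate 1 in both groups it was 2.11 ± 0.19 (adjusted p = 4.8e-10, limma). Without the block, the call was lost when untreated replicate 2 (1.76; adjusted p = 0.082), untreated replicate 3 (1.49; adjusted p = 0.105) or anti-IgM replicate 1 (1.38; adjusted p = 0.053) was left out in limma.

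The spread of Cish between replicates was unusual for these arrays. On the log2 scale its SD was 1.28 without and 1.06 with anti-IgM (n = 3 each), and combined over the groups it ranked 3 among the 11855 genes tested. Replicate 1 exceeded the mean of replicates 2 and 3 by 2.18 in untreated and 1.82 in anti-IgM samples. Only 14 genes, 0.118% of those tested, exceeded the others by over 1 in replicate 1 of both groups, and Stat5a, which encodes a STAT that activates Cish, was also among them. This choice of Stat5a was made after the values were seen. Stat5a read 1021, 420 and 517 in untreated replicates 1, 2 and 3, and 2451, 1047 and 924 in anti-IgM replicates 1, 2 and 3. Replicate 1 was thus the highest array of each group, as in Cish, and the groups overlapped only in that anti-IgM replicate 3 lay below untreated replicate 1. A dimmer Stat5a probe read 250, 177 and 164 without and 492, 275 and 315 with anti-IgM, again with replicate 1 highest. No array read the closely related Stat5b above its median, and the probes' ability to tell these paralogs apart was not tested.

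**Figure D2:**
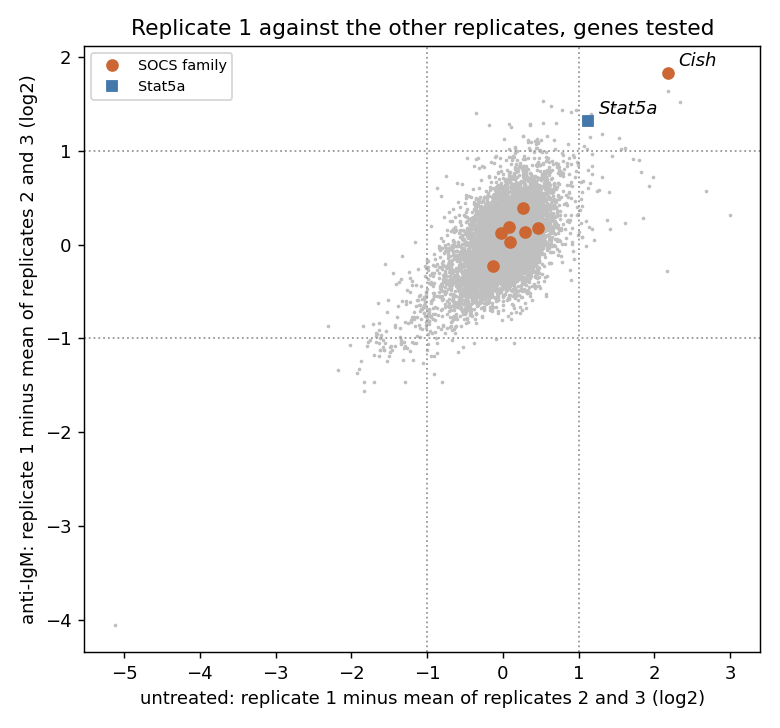
Log2 difference of replicate 1 from the mean of replicates 2 and 3, in untreated (horizontal) and anti-IgM samples (vertical), for the 11855 genes tested (grey), the 8 SOCS family genes (orange) and Stat5a (blue), with dotted lines at a difference of 1. Cish lies at 2.18 and 1.82 and Stat5a in the same corner, while the other 7 SOCS genes lie within 0.46 of 0 on both axes.

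Markers of other cell types were read beside these values. Of 10 T cell markers on the array 8 passed the filter, 2 fell and 0 rose. The summed intensity of the 10 was 3032, 2661 and 2783 in untreated and 2125, 1879 and 1959 in anti-IgM replicates 1, 2 and 3. The sum was thus lower in the anti-IgM group, where Cish was higher, but within each group highest in replicate 1, as Cish was. The lower sum rested on the 2 markers that fell, Cd8b1 and Cd28. Cd8b1, the largest part of the sum, read 1895, 1671 and 1860 in untreated and 1281, 1119 and 1234 in anti-IgM replicates 1, 2 and 3. Cd28 read 422, 368 and 342 without and 135, 166 and 141 with anti-IgM. No array read Cd8a above its median, and no anti-IgM sample read Cd3e above it. Cd3d, a chain of the T cell receptor complex, read 142 (untreated) and 174 (anti-IgM) in replicate 1 and from 92.5 to 109 elsewhere. Thy1, another T cell marker, read 112 and 125 in replicate 1 and from 64.2 to 78.7 elsewhere. Cd4 read 89.2 (untreated) and 81.3 (anti-IgM) in replicate 1 and from 59.8 to 80.2 elsewhere. Cd3g was highest in replicate 1 among untreated samples, at 94.7 against 83.2 and 76.3. Other T cell markers went the other way. Trat1 read 70.9 (untreated) and 60.5 (anti-IgM) in replicate 1 and from 76.5 to 83.7 elsewhere. Cd247, near the array median, was also lowest in replicate 1 of each group, and Cd3e was lowest there among untreated samples. Of 6 natural killer cell markers 4 passed the filter, and Nkg7 rose (1.20 ± 0.21; adjusted p = 7.48e-04, limma) while Klrd1 fell. Klrd1 was above the median on 3 untreated arrays and 1 anti-IgM array, so the filter favoured its fall. The 6 markers summed to 624, 547 and 497 in untreated and 789, 729 and 668 in anti-IgM replicates 1, 2 and 3. The sum was thus higher with anti-IgM and in replicate 1, as Cish was. Its higher value with anti-IgM rested on Nkg7, the only 1 of them called higher. Nkg7 read 188, 110 and 134 in untreated and 366, 339 and 272 in anti-IgM replicates 1, 2 and 3. No array read Ncr1, which defines natural killer cells, above its median. Of 6 dendritic cell markers 3 passed, and Zbtb46 rose (1.76 ± 0.14; adjusted p = 2.15e-06, limma) while Xcr1 fell. Xcr1 passed the filter through the untreated group alone, so the filter favoured its fall. The 6 dendritic cell markers summed to between 466 and 697 in untreated and between 616 and 823 in anti-IgM samples, lowest in replicate 1 of each group. The higher sum with anti-IgM rested on Zbtb46, which read 75.1 to 77.7 in untreated and 256 to 264 in anti-IgM samples. Siglech read 113, 304 and 330 in untreated and 104, 177 and 300 in anti-IgM replicates 1, 2 and 3. No array read Itgax above its median. The part of T, natural killer or dendritic cells in the Cish levels was not tested. In these bulk samples fewer cells of a type and less RNA per cell cannot be told apart.

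Socs2, an inhibitor of growth hormone signalling, is the closest relative of Cish. It read 243, 235 and 302 in untreated and 176, 177 and 240 in anti-IgM replicates 1, 2 and 3. Replicate 3 was the highest of each group, and the groups overlapped by that array alone. The change did not pass the test (−0.40 ± 0.18; adjusted p = 0.091, limma; 95% interval −0.80 to −0.01). It was negative in 3 of 3 pairs (−0.46, −0.41 and −0.33), and with the replicate block it passed (adjusted p = 0.018, limma). Without anti-IgM replicate 3 it also passed in limma (−0.55; adjusted p = 0.033). No array read the second Socs2 probe above its median.

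Socs1 and Socs3 are the members that inhibit JAKs directly, Socs1 after interferon and IL-4 signals and Socs3 after IL-6 type signals. Socs3 read 364, 239 and 293 in untreated and 170, 135 and 166 in anti-IgM replicates 1, 2 and 3, so every anti-IgM array lay below every untreated one. It fell 1.89-fold (−0.91 ± 0.19; adjusted p = 0.0020, limma), by 1.10, 0.82 and 0.82 on the log2 scale within pairs 1, 2 and 3. Socs1 was dim, above the array median on 2 of 3 arrays in each group. It read 94.8, 67.1 and 89.2 in untreated and 91.9, 68.9 and 101 in anti-IgM replicates 1, 2 and 3. Replicate 2 was the lowest in both groups and the groups overlapped throughout. Its change was 0.06 ± 0.18 (adjusted p = 0.83, limma), with a 95% interval from −0.35 to 0.47 that allows a small change either way. Because no background was subtracted down to 0 from these intensities, folds of so dim a probe are compressed.

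Macrophages and granulocytes also express Socs3, and some of their markers fell with anti-IgM as it did. All 8 such markers on the array passed the filter, and 4 of them fell and 0 rose. Their summed intensity was 7339, 16872 and 21093 in untreated and 5325, 6567 and 9184 in anti-IgM replicates 1, 2 and 3. Within each group the sum was lowest in replicate 1, where Socs3 was highest. Lyz2, a lysozyme gene of macrophages, was lowest among untreated samples in replicate 1 at 844, against 3516 and 4926, while Socs3 was highest there. The part of these cells in the fall of Socs3 was not tested.

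**Figure D3:**
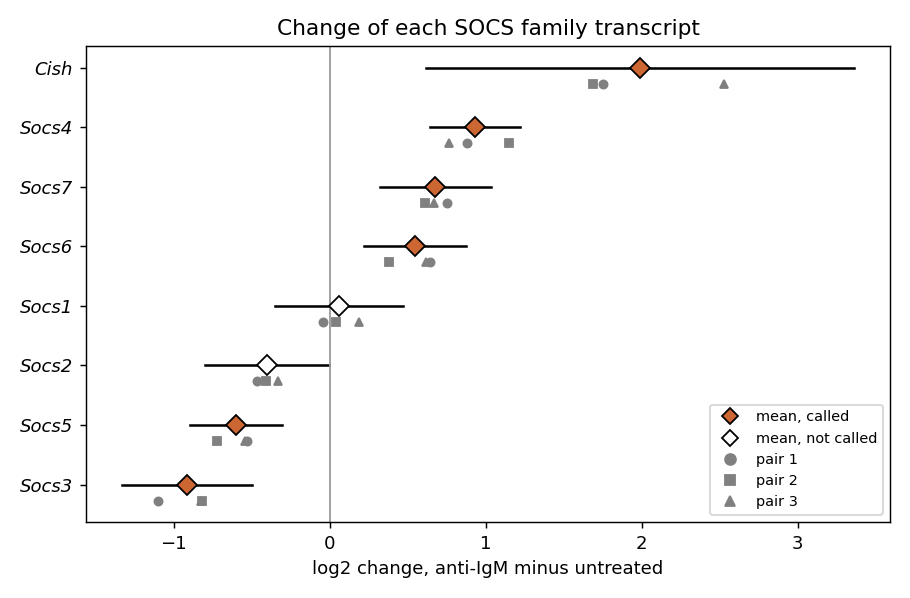
Log2 change (anti-IgM minus untreated) of each SOCS family transcript, with the mean as a diamond, filled where the adjusted p was under 0.05 in limma, the 95% interval as a line and the numbered pairs as small symbols below. The intervals of Cish, Socs4, Socs6 and Socs7 lie above 0, those of Socs2, Socs3 and Socs5 below it, and that of Socs1 on both sides.

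Socs4 to Socs7 have long amino-terminal regions and are tied more to receptor tyrosine kinases and insulin signalling than to cytokine receptors. Socs4, studied as a regulator of the epidermal growth factor receptor, read 331, 297 and 321 in untreated and 610, 659 and 544 in anti-IgM replicates 1, 2 and 3. The groups were far apart relative to their spread. Socs4 rose 1.91-fold on this probe (0.93 ± 0.13; adjusted p = 1.44e-04, limma), with pair values of 0.88, 1.15 and 0.76. A dimmer Socs4 probe, for which the annotation lists no transcript accession, did not follow. It read 160, 155 and 122 in untreated and 131, 132 and 123 in anti-IgM samples, a change of −0.17 that did not pass the test (adjusted p = 0.46, limma over all probes tested). With the mean of the 2 probes the change of Socs4 was 0.38 (adjusted p = 0.022, limma).

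Socs5, the nearest relative of Socs4, moved the other way. It has been linked to reduced IL-4 signalling in T helper cells. It read 503, 513 and 440 in untreated and 349, 311 and 302 in anti-IgM replicates 1, 2 and 3, with no overlap. It fell 1.51-fold (−0.60 ± 0.13; adjusted p = 0.0034, limma), by 0.53, 0.72 and 0.54 on the log2 scale within pairs 1, 2 and 3. No array read its second probe above the median.

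Socs6, which binds the receptor tyrosine kinase KIT, read 151, 166 and 141 in untreated and 236, 216 and 216 in anti-IgM replicates 1, 2 and 3. All anti-IgM arrays lay above all untreated arrays. It rose 1.46-fold (0.55 ± 0.15; adjusted p = 0.0100, limma), with pair values of 0.64, 0.38 and 0.61. No array read any of its other 3 probes above the median.

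Socs7, which binds adaptor proteins of the NCK family, read 82.5, 66.1 and 70.6 in untreated and 139, 101 and 112 in anti-IgM replicates 1, 2 and 3. The untreated values lie near the array median of 72.8. It rose 1.60-fold (0.68 ± 0.16; adjusted p = 0.0049, limma), with pair values of 0.75, 0.61 and 0.67. Its second probe read 91.4, 77.3 and 60.1 without and 116, 99.8 and 107 with anti-IgM, also without overlap (0.52; adjusted p = 0.032, limma over all probes tested). The call was lost without untreated replicate 3 (0.35; adjusted p = 0.105, limma) or anti-IgM replicate 1 (0.46; adjusted p = 0.068, limma), fits in which the second probe was the brighter and took the place of the first. With the first probe kept, a choice made after the data were seen, it held without any single array (0.55 to 0.78; highest adjusted p = 0.028, limma).

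For the 3 members with the largest spread over the 6 arrays, the genes of most similar pattern were listed by Pearson's r of log2 intensity over the 6 arrays, among genes with an SD within 1.5 times that of the member. The arrays are shared by all genes and fall into 2 groups, so such values describe the pattern only. Cish was most like Fmnl2 (r = 0.97), Serpinb6b (r = 0.96) and Nat10 (r = 0.93), out of 636 genes. Fmnl2, a formin, read 502, 140 and 87.4 in untreated and 1071, 408 and 290 in anti-IgM replicates 1, 2 and 3, with replicate 1 highest in each group. Socs3 was most like Sorl1, Fuca1 and Dbndd2 (r between 0.99 and 1.00) out of 3435 genes, and these were highest in untreated replicate 1. Socs4 was most like C030006K11Rik, Crem and Hipk1 (r = 1.00 for each) out of 3555 genes.

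The partners that turn SOCS proteins into ubiquitin ligases moved upward. Of 8 members measured, 7 rose and 0 fell, with a median log2 change of 0.58. Rnf7, also in this list, had no probe of a single symbol and was not measured. Over all genes tested 23.2% rose and 23.9% fell, shares that also stand beside the counts of the lists that follow. The count of rises was 5 to 7 with 1 array left out at a time, and 5 to 7 under the other alternatives. Ube2f, which carries the cullin activator NEDD8 towards CUL5, rose by 1.07 ± 0.12 (adjusted p = 3.43e-05, limma), and Arih2, a ligase that works with CUL5, by 0.88 ± 0.12. Cul5, the scaffold itself, rose by 0.48 ± 0.11, and the elongin genes Eloc and Elob by 0.68 ± 0.13 and 0.34 ± 0.11. Nedd8 did not pass the test (0.12 ± 0.09; adjusted p = 0.32, limma). The largest of these rises was 2.10-fold.

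The kinases and transcription factors upstream moved mostly downward. Of 9 JAK and STAT genes tested 5 fell and 2 rose, with a median of −1.03. Stat2, a transducer of type I interferon signals, changed most (−2.20 ± 0.26), and Tyk2, a kinase of interferon and IL-12 receptors, fell by 1.82 ± 0.14. The genes that rose were Stat5a (1.14 ± 0.38; adjusted p = 0.031, limma) and Stat6, the transducer of IL-4 (0.43 ± 0.13; adjusted p = 0.016, limma). Stat5a was higher in 3 of 3 pairs and passed with the replicate block (adjusted p = 3.51e-09, limma). Without replicate 1 in both groups its change was 1.08 ± 0.13 (adjusted p = 1.61e-07, limma). Stat5a was singled out for high values in replicate 1 of both groups. The smaller errors of both fits follow in part from that choice, so they are no independent support. The pairs also came from correlations of these same arrays. In fits without the block, the call of Stat5a was lost in limma without untreated replicate 2 (adjusted p = 0.125), untreated replicate 3 (adjusted p = 0.114) or anti-IgM replicate 1 (adjusted p = 0.072). That of Stat6 was lost without untreated replicate 2 (adjusted p = 0.057) or anti-IgM replicate 2 (adjusted p = 0.070), so the count of rises was 0 without untreated replicate 2, and 1 without untreated replicate 3 or anti-IgM replicates 1 or 2.

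**Figure D4:**
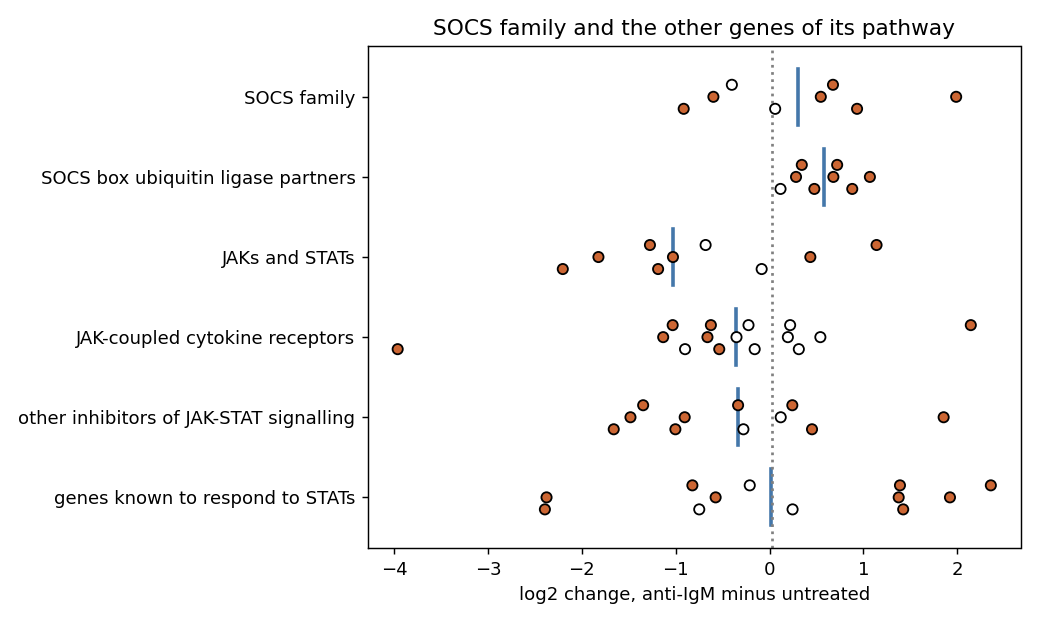
Log2 change (anti-IgM minus untreated) of each tested gene in the SOCS family and in 5 lists of its pathway, filled where the adjusted p was under 0.05 in limma, with a blue bar at the median of each list and a dotted line at the median of all genes (0.02). The ligase partners lie above 0, and most JAK and STAT genes lie below it.

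Of 15 tested receptors that use JAKs, 6 fell and 1 rose (median −0.35). Il2ra, the high-affinity chain of the IL-2 receptor, rose 4.42-fold (2.14 ± 0.15). Il10ra, the IL-10 receptor chain, stayed at or below the array median with anti-IgM and was at least 13.4-fold lower, and Il10rb, its partner, fell by 1.13 ± 0.16. Il4ra, the IL-4 receptor chain, was at least 1.71-fold lower by the same bound. Both passed the filter through the untreated group alone, so the filter favoured a fall in them, and Il2ra was above the median on 2 untreated and 3 anti-IgM arrays. With the filter on all 6 arrays none of the 3 was tested, and 4 receptors fell and 0 rose. With the replicate block 8 fell and 2 rose. The count of falls was 2 without untreated replicate 2 or 3, and that of rises was 2 without untreated replicate 1. The filter still needed 3 arrays in these fits, so the probes used for Il10ra and Il4ra did not pass without an untreated array. With the probes of the full fit kept, the count of falls was 4 to 7 with 1 array left out at a time.

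Of 11 other inhibitors of this pathway, 3 rose and 6 fell (median −0.34). Ptpn2, a phosphatase of JAK1, JAK3 and STATs, rose 3.62-fold (1.85 ± 0.14), and Pias2, a SUMO ligase that binds STATs, by 0.45 ± 0.15. Ptpn6, which encodes SHP-1, fell by 1.66 ± 0.12, and Usp18, which shields the interferon receptor from JAK1, by 1.48 ± 0.17. The rise of Pias2 was lost in limma without untreated replicate 2 (adjusted p = 0.098), anti-IgM replicate 1 (adjusted p = 0.067) or anti-IgM replicate 2 (adjusted p = 0.099), where 1 gene of the list rose.

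Genes known to respond to STATs were divided: 5 of 12 rose and 4 fell (median 0.02). Gfi1, a transcriptional repressor, rose by 2.36 ± 0.14 and Ccnd2, which encodes cyclin D2, by 1.92 ± 0.18. Bcl6, the repressor of the germinal centre programme, changed by −2.39 ± 0.23, and Fcer2a, the IgE receptor CD23 and a STAT6 target, by −2.38 ± 0.36. The count of falls was 2 without untreated replicate 3.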

How the data were processed

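Per the labels' protocols, biotinylated cRNA was made from total RNA with a kit from Ambion. The values are the authors' deposited intensities, 45281 probes on a linear scale, already normalized between arrays as their like distributions show (medians 72.8). The sources used here do not give the method. The 6 columns of a second table, of unnormalized signals, carry names that match no sample and were not used.

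Of the probes, 34885 had 1 gene symbol, 18 several and 10378 none in the platform annotation. 19051 probes of 11855 genes passed the filter. Log2 intensities were fitted in R 4.3.3 with limma 3.58.1 (intensity trend, group alone, two-sided, Benjamini-Hochberg over all genes, threshold 0.05), a fit tested on simulated data. The precision is limited by the number of arrays (median SE 0.15), and p-values reflect only how these samples vary, which may be technical.

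A change against a group with no array above its median is a bound, the brighter mean against the dimmer mean of, per array, the higher of array median and own value. Deviations from group means correlated at 0.60, 0.27 and 0.32 for equal replicate numbers, each over 0.1, and equal numbers were treated as pairs. Untreated replicate 2 and anti-IgM replicate 3 correlated at 0.39, so pairs 2 and 3 are not told from their exchange. No 2 arrays were identical (0 pairs).

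Named are the 8 members, from each pathway list the 2 called genes that rose most and the 2 that fell most, and for 3 members the 3 genes most alike. Others were named after their values were seen. Members and lists were chosen with earlier results of these data known. Alternatives were another filter, normalization, background, variance model or probe rule, the replicate block, and leaving out arrays. Plots used Python 3.11.15 and matplotlib 3.10.9.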

Additional observations from a re-analysis of the deposited data

How the results depend on the processing

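Direction and side of the threshold held for Socs3, Socs4, Socs5 and Socs6 under each alternative run. Socs1 turned negative without untreated replicate 2 (−0.092) or anti-IgM replicate 3 (−0.057), with or without the probes kept, ranged from −0.092 to 0.222, and was not called in any fit that tested it. With one array left out at a time, Cish ranged from 1.38 to 2.71. The family then counted 2 to 4 rises and 2 to 3 falls, or 3 to 4 rises with the probes kept. All genes counted 2362 to 2746 rises and 2485 to 2841 falls. JAK and STAT genes counted 0 to 2 rises, receptors 1 to 2 rises and 2 to 6 falls (4 to 7 with the probes kept), other inhibitors 1 to 2 rises, and STAT-responsive genes 2 to 4 falls. Receptor rises numbered 0 with the filter on all 6 arrays, 2 with the replicate block and 3 without replicate 1 in both groups. STAT-responsive falls numbered 2 with the mean over tested probes. Among the receptors, the probes used for Il10ra and Il4ra did not pass the filter without an untreated array. Other causes of these shifts were not tested. Pairing by replicate block called 6397 genes against 5581 and changed, among the members, only the call of Socs2 (adjusted p = 0.018). With the filter on all 6 arrays Socs1 and Socs7 could not be fitted. Without replicate 1 in both groups Socs1 could not be fitted either, and Socs7 was read from its second probe. With 2 arrays in a group, the spread is pooled over both groups.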

Other observations

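The receptor genes Ghr and Ifngr2 were low in replicate 1, where Cish and Stat5a were high. In 46 of 11855 genes tested, 0.388%, replicate 1 lay below the mean of replicates 2 and 3 by over 1 on the log2 scale in both groups. Ghr, the growth hormone receptor, and Ifngr2, a chain of the interferon gamma receptor, were among them, and both were singled out after their values were seen. Ghr had log2 intensities of 6.17, 7.37 and 7.65 in untreated and 6.14, 6.76 and 7.62 in anti-IgM replicates 1, 2 and 3, so that replicate 1 was not above the array median in either group. Ifngr2 had 10.28, 11.80 and 12.05 in untreated and 9.68, 10.48 and 11.26 in anti-IgM replicates 1, 2 and 3. Of the 15 receptors tested, replicate 1 lay below the mean of the others in both groups in 3 and above it in both in 6, so the low values were not shared by the list. Ifngr2 was lower with anti-IgM in 3 of 3 pairs (−0.60, −1.31 and −0.79). It missed the threshold without the pairing (−0.90 ± 0.46; adjusted p = 0.14, limma) and passed it with the replicate block (−0.90 ± 0.11; adjusted p = 1.97e-07, limma). Ifngr2 was singled out for a deviation that replicate 1 shared between the groups, and the block takes up that deviation. The smaller error is therefore no independent support for the fall. The pairs also came from correlations of these same arrays. Ghr passed neither without the block (−0.22 ± 0.41; adjusted p = 0.71, limma) nor with it (−0.22 ± 0.16; adjusted p = 0.26, limma). The other genes that were higher in replicate 1 of both groups were AU020206, Chd3, Cox6a2, Dock10, Dock2, Fmnl2, Nyx, Pltp, Ryr2, Serpina3f, Wdfy1 and Zswim8.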
